A study of Mus musculus with 8 samples.

Results

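The Hox cluster genes were followed across 8 Illumina expression arrays of mouse embryonic stem (ES) cells. Members were all probes of the deposited non-normalized table whose platform symbol was Hoxa, Hoxb, Hoxc or Hoxd followed by a number. This gave 57 of 45281 probes, which stood for 38 of the 18300 genes with a named probe. All cells were of the R1 line, were Fgf4-deficient (FGF4-/-), carried an shRNA vector, and had spent a night in N2B27, a medium without serum, to which 10 ng/ml of Bmp4 was added. They were then kept to day 3 under 4 conditions of 2 arrays each. With FGF4 at 20 ng/ml, 1 array carried the Mp1 shRNA shMp1Lib, 1 carried the Mp1 shRNA shMP1G, and 2 carried the control shRNAs shRnd1 and shRnd2. The control shRNAs shRnd1 and shRnd2 were also used with LIF at 10 u/ml and with no growth factor. Mp1 is the MEK and ERK scaffold encoded by Lamtor3, and the series asks for its part in ES cell differentiation.

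Hox genes encode homeodomain transcription factors that lie side by side in clusters on separate chromosomes. Within a cluster, genes with low paralogue numbers are switched on earlier and further forward in the embryo than those with high numbers. Retinoic acid, FGF and Wnt signals and the Cdx factors open the clusters in the gastrulating embryo, Polycomb complexes keep them silent in ES cells, and TALE homeodomain proteins bind DNA together with HOX proteins.

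Several properties of the arrays bear on every value. Between 15375 and 17813 probes were detected per array, which means a detection p-value under 0.05. By their titles the 2 arrays of a condition carried different shRNA vectors, so the p-values reflect the spread between the vectors and between these arrays, and 2 arrays per group limit the precision. Where 1 array is left out, its group has a single array, whose spread is taken to be that of the other groups. The only Lamtor3 probe was not detected on any array, with intensities of 63.0 to 71.2, so the knockdown could not be checked. Socs3, a direct target of LIF signalling, was at 11.04 and 11.01 (normalized log2) with no growth factor and at 7.67 and 7.64 on the arrays labelled LIF. On the arrays with FGF4, which had no LIF, it was at 7.91 to 8.21. In the treatment note both LIF samples carry Rnd1, whereas their titles name shRnd1 and shRnd2. Those arrays are therefore called "labelled LIF" below. The doubt covers the no factor arrays as well, which are so called by their labels. FGF4 is compared with each of the 2 groups separately, and an exchange of the 2 labels would exchange these comparisons. The ES cell markers Pou5f1, Tdgf1 and Dppa5a were detected on all 8 arrays, with Pou5f1 at 13.57 to 14.10, while the Esrrb probe was detected on none. Of 7 listed ES cell markers 4 had a probe. Sox2, Nanog and Zfp42 had none under those symbols and could not be read.

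Most Hox genes gave no signal above background. Of the 38 genes, 23 had no probe detected on any array and 2, Hoxb3 and Hoxb8, were detected on 1 array each. The other 13 had a probe detected on at least 2 arrays, which was the filter for testing. These 13 were Hoxa7 and Hoxa13 of 10 Hoxa genes, Hoxb2, Hoxb4, Hoxb5 and Hoxb7 of 10 Hoxb genes, Hoxc4, Hoxc6, Hoxc9, Hoxc10, Hoxc12 and Hoxc13 of 9 Hoxc genes, and Hoxd9 of 9 Hoxd genes. The 43 probes that did not pass, which include further probes of the tested genes, lay between 51.5 and 124.5 intensity units over the 8 arrays, with medians of 69.9 to 84.2 per array. The highest Hox signal in the series was 260.2, for Hoxb7 on a no factor array. Hoxc was the cluster with the most members past the filter.

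**Figure D1:**
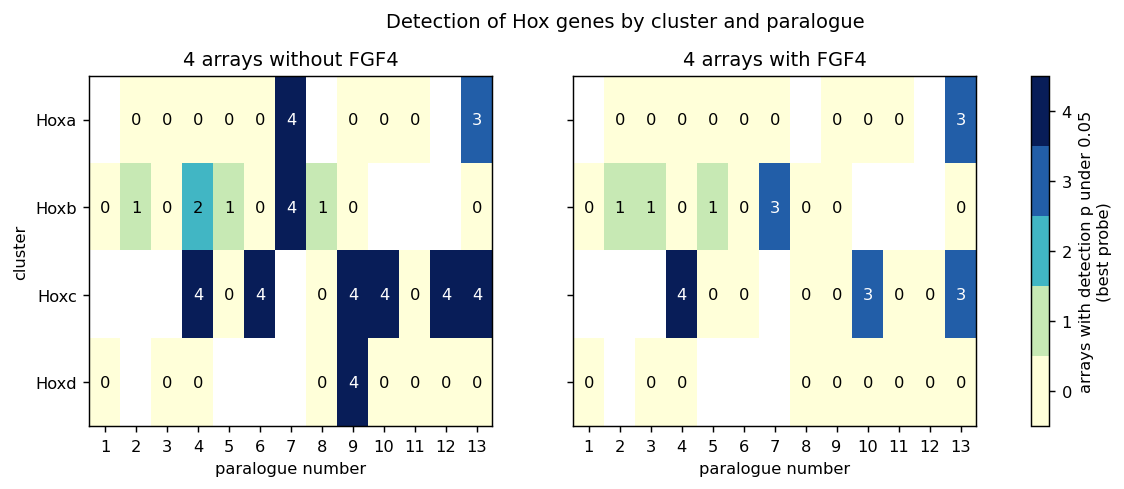
Number of arrays (0 to 4) on which the best probe of each Hox gene had a detection p under 0.05, by cluster (rows) and paralogue number (columns), for the 4 arrays without FGF4 (left) and the 4 arrays with FGF4 (right). White squares have no gene or no named probe. Hoxa7, Hoxc6, Hoxc9, Hoxc12 and Hoxd9 were detected on 4 arrays without FGF4 and on 0 with it, while Hoxc4 was detected on all 8.

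More Hox probes were detected without FGF4 than with it. On the no factor arrays 15 and 12 of the 57 probes were detected (26.3% and 21.1%), and on the arrays labelled LIF 10 and 11 (17.5% and 19.3%). With FGF4 the count was 5 and 4 for the control shRNAs (8.8% and 7.0%), and 6 for shMp1Lib and 4 for shMP1G (10.5% and 7.0%). Every array with FGF4 thus had fewer detected Hox probes than every array without it. The share over all 45281 probes ran from 34.0% to 39.3% and was 39.3% on the shMp1Lib array, so fewer detected Hox probes did not go with fewer detected probes in general. At a detection p under 0.01, 6, 5, 6 and 5 Hox probes were detected on the 4 arrays without FGF4, and 1, 0, 0 and 0 on those with it.

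**Figure D2:**
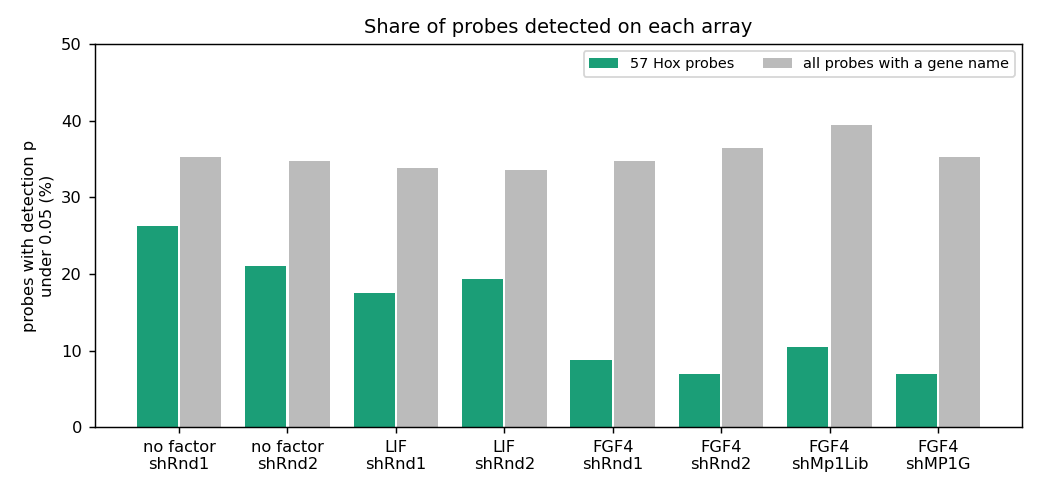
Percent of probes with a detection p under 0.05 on each array, for the 57 Hox probes (green) and all probes with a gene name (grey). The 4 arrays with FGF4 show 7.0% to 10.5% of Hox probes detected and the 4 without it 17.5% to 26.3%, while the grey bars stay within 33.6% to 39.4%.

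FGF4 was first compared with no growth factor in cells with control shRNAs. This asks how Hox genes stand at day 3 with the factor that these cells cannot make. All 8 arrays are of day 3, and none is from an earlier day. Here and below, fell, rose and drop therefore mean lower or higher than in the compared group. A change over time was not measured. Of the 13 tested Hox genes, 8 fell with FGF4, 0 rose and 5 did not pass (limma, Benjamini-Hochberg adjusted over 14103 features, threshold 0.05). Over all features tested, 7.79% fell and 7.84% rose. The median difference of the 13 Hox genes was -0.84 log2 units, against -0.02 over all features. Of the 13 genes, 6 were detected only on arrays without FGF4, and all 6 are among the 8 that fell, so the count and the median describe the tested genes and not the clusters as a whole. The members that fell were Hoxa7, Hoxb4, Hoxb7, Hoxc6, Hoxc9, Hoxc12, Hoxc13 and Hoxd9, which come from all clusters and from paralogue groups 4 to 13. In bulk RNA, fewer cells that express a gene and less RNA per cell cannot be told apart.

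**Figure D3:**
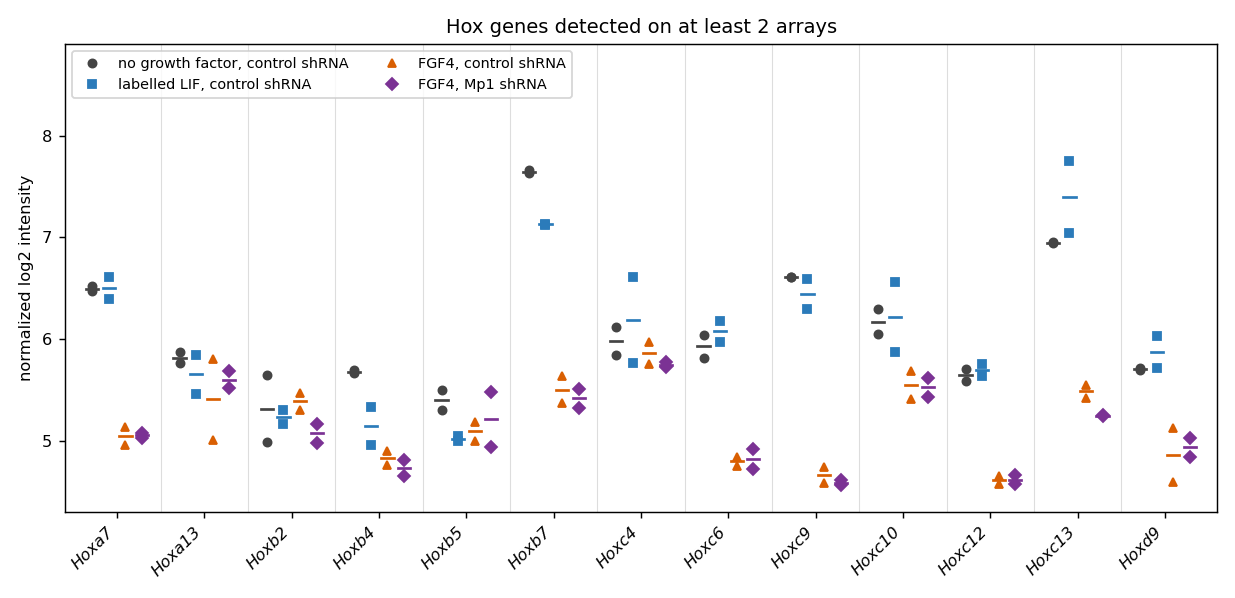
Normalized log2 intensity (vertical axis) of the 13 tested Hox genes (horizontal axis) on each of the 8 arrays. Each point is 1 array, each short bar the mean of the 2 arrays of a group, and colours and shapes mark the groups. Hoxb7, Hoxc9, Hoxa7 and Hoxc13 show a gap between the arrays with and without FGF4, and Hoxb2 and Hoxc4 show none.

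Hoxb7, a trunk Hox gene of the thoracic region, had the largest log2 difference between FGF4 and no factor among the tested Hox genes. Its raw intensities were 249.7 and 260.2 with no factor, 143.4 and 182.8 on the arrays labelled LIF, 119.9 and 99.0 with FGF4 and control shRNAs, 107.7 with shMp1Lib and 106.3 with shMP1G. In normalized log2 units these were 7.66 and 7.63, 7.13 and 7.12, 5.63 and 5.37, and 5.32 and 5.51. The groups with and without FGF4 did not overlap. Between FGF4 and no factor, control shRNAs, the level was 4.42-fold lower (log2 difference -2.14 ± 0.18 SE, n = 2 per group, adjusted p from limma 0.000174). The shRnd2 FGF4 array did not detect this probe (detection p 0.05), so the level with FGF4 lay at the edge of background and the fold is uncertain. A second Hoxb7 probe differed the same way, at 6.23 and 6.36 with no factor and 4.85 and 4.71 with FGF4. Its difference was -1.51 (limma adjusted p 0.000774 with every probe as its own feature).

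Hoxa7, the Hoxa paralogue of Hoxb7, stood at 6.52 and 6.47 with no factor, 6.61 and 6.39 on the arrays labelled LIF, 4.96 and 5.13 with FGF4 and control shRNAs, and 5.07 and 5.03 with the Mp1 shRNAs (normalized log2, shMp1Lib first here and below). No array with FGF4 had it well above background. The drop is therefore a bound, at least 2.03-fold lower with FGF4 than with no factor (-1.44 ± 0.17 SE, n = 2, limma adjusted p 0.000972). Such bounds set the mean of the brighter group against the lowest signal well above background on the dim arrays.

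Hoxc9, which gives thoracic motor neurons their identity, was at 6.61 and 6.61 with no factor, 6.59 and 6.29 on the arrays labelled LIF, 4.74 and 4.58 with FGF4 and control shRNAs, and 4.56 and 4.61 with the Mp1 shRNAs. No array with FGF4 detected it, and all 4 arrays without FGF4 did. It was at least 2.21-fold lower with FGF4 (-1.95 ± 0.18 SE, n = 2, limma adjusted p 0.000281). Hoxc13, a regulator of hair and nail keratins at the posterior end of the cluster, was at 6.95 and 6.94 with no factor, 7.75 and 7.04 on the arrays labelled LIF, 5.55 and 5.42 with FGF4 and control shRNAs, and 5.25 and 5.24 with the Mp1 shRNAs. It was still detected on both control FGF4 arrays, at a detection p of 0.04 on each. Its level there was 2.74-fold lower than with no factor (-1.46 ± 0.24 SE, n = 2, limma adjusted p 0.0043). That level lay at the edge of background, so the fold is uncertain.

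Hoxc6, which acts in motor neurons at forelimb level, and Hoxc12 are further Hoxc members that fell. Hoxc6 was at 6.04 and 5.81 with no factor, 5.97 and 6.18 on the arrays labelled LIF, 4.84 and 4.75 with FGF4 and control shRNAs, and 4.92 and 4.72 with the Mp1 shRNAs. Hoxc12 was at 5.70 and 5.59, 5.63 and 5.75, 4.65 and 4.57, and 4.66 and 4.57 in the same order. Neither was detected with FGF4, and for both the arrays with and without FGF4 did not overlap. Hoxc6 was at least 1.38-fold lower (-1.14 ± 0.19 SE, limma adjusted p 0.00414) and Hoxc12 at least 1.13-fold lower (-1.03 ± 0.17 SE, limma adjusted p 0.00402). Both lost the call without the shRnd1 no factor array, at adjusted p 0.0543 and 0.0513.

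Hoxb4, known for expanding blood stem cells when overexpressed, was detected only with no factor, at 5.66 and 5.69. It was at 4.96 and 5.33 on the arrays labelled LIF, 4.90 and 4.76 with FGF4 and control shRNAs, and 4.65 and 4.81 with the Mp1 shRNAs. It was at least 1.15-fold lower with FGF4 than with no factor (-0.84 ± 0.19 SE, limma adjusted p 0.0195). That call was lost when either array of either group was left out, at adjusted p 0.0865 and 0.142 without the first or second control FGF4 array and 0.114 and 0.134 without the first or second no factor array. In RefSeq the Hoxb3 and Hoxb4 spans overlap, so part of the Hoxb4 signal could come from Hoxb3 transcripts, which was not tested.

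Hoxd9, a limb and trunk gene, was the only tested Hoxd member. It was at 5.69 and 5.71 with no factor, 6.03 and 5.71 on the arrays labelled LIF, 4.59 and 5.12 with FGF4 and control shRNAs, and 5.03 and 4.84 with the Mp1 shRNAs. No array with FGF4 detected it, and the levels with and without FGF4 did not overlap. It was at least 1.17-fold lower with FGF4 (-0.84 ± 0.23 SE, limma adjusted p 0.0384). The adjusted p was 0.262 without the shRnd1 FGF4 array, and 0.170 and 0.198 without the first or second no factor array.

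The 5 tested members that did not pass were of several clusters. Hoxc4 was detected on all 8 arrays and differed by -0.12 log2 units between FGF4 and no factor, with a 95% interval of -0.76 to 0.52. Its levels were 5.84 and 6.12 with no factor, 6.61 and 5.76 on the arrays labelled LIF, 5.75 and 5.97 with FGF4 and control shRNAs, and 5.77 and 5.72 with the Mp1 shRNAs, so the groups overlapped. Hoxc10, which acts in hindlimb motor neurons, lay lower on all 4 arrays with FGF4 than on the 4 without. Its levels were 6.29 and 6.05 with no factor, 6.56 and 5.87 on the arrays labelled LIF, 5.41 and 5.68 with FGF4 and control shRNAs, and 5.43 and 5.62 with the Mp1 shRNAs. The Hoxc10 difference of -0.62 (95% interval -1.21 to -0.04) did not pass after adjustment (limma adjusted p 0.155). Hoxa13, a gene of the digits and the hind end of the body, spread more between the control FGF4 arrays than between groups. It stood at 5.87 and 5.76 with no factor, 5.46 and 5.84 on the arrays labelled LIF, 5.80 and 5.01 with FGF4 and control shRNAs, and 5.52 and 5.68 with the Mp1 shRNAs (FGF4 against no factor -0.41, 95% interval -1.04 to 0.22). Hoxb2, a hindbrain gene, was at 5.64 and 4.99 with no factor, 5.30 and 5.16 on the arrays labelled LIF, 5.30 and 5.47 with FGF4 and control shRNAs, and 5.16 and 4.98 with the Mp1 shRNAs (0.07, -0.48 to 0.62). Hoxb5, a gene of enteric neural crest, was at 5.50 and 5.30, 5.00 and 5.04, 5.00 and 5.18, and 5.48 and 4.94 in the same order (-0.31, -0.81 to 0.19). Hoxb2 and Hoxb5 were each detected on 2 arrays, 1 with and 1 without FGF4.

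**Figure D4:**
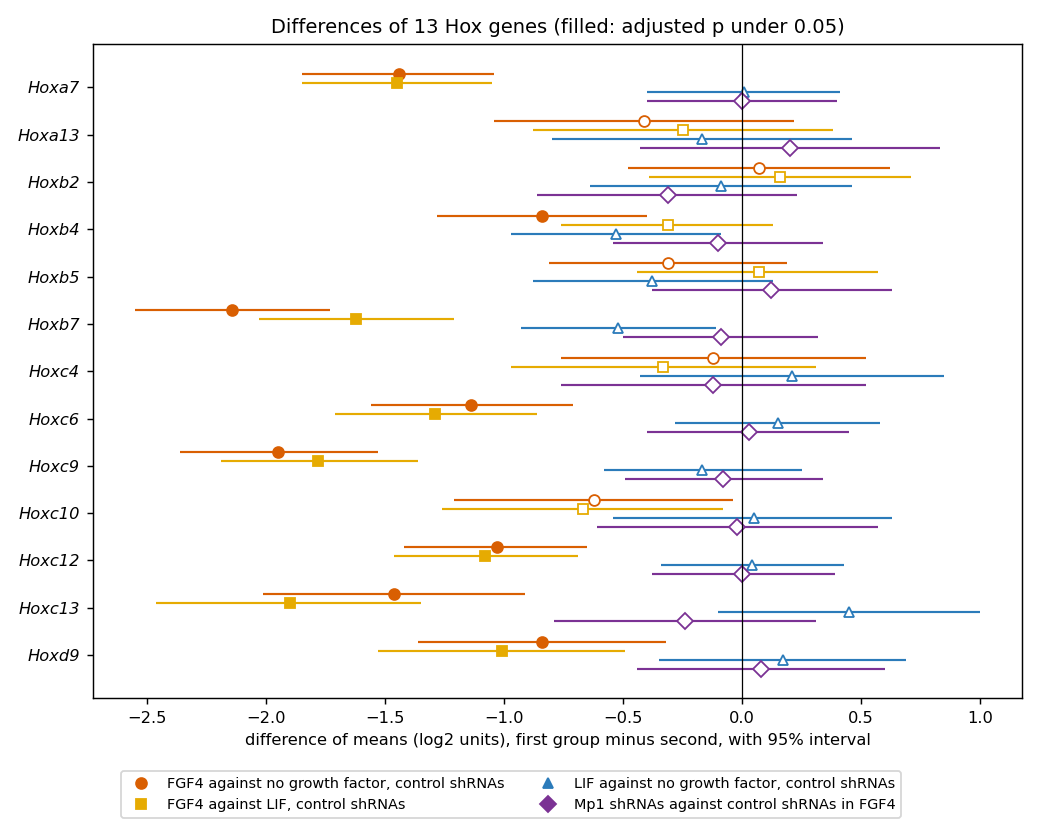
Difference of group means in log2 units (horizontal axis, first group minus second) with 95% intervals for the 13 tested Hox genes (vertical axis) in 4 comparisons. Filled symbols passed an adjusted p of 0.05 and open ones did not. Hoxa7, Hoxb7, Hoxc9 and Hoxc13 lie between -2.14 and -1.44 for FGF4 against no factor, and all 13 lie between -0.31 and 0.20 for Mp1 shRNAs against control shRNAs.

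Since the filter favours genes that were high without FGF4, all 57 Hox probes were also ranked with no filter. For 14 of them (24.6%, from 11 genes) the 4 arrays with FGF4 all lay below the 4 arrays without it in normalized level, and for 0 they all lay above. Over all 45281 probes these shares were 7.02% and 7.81%. With only the 2 control FGF4 and the 2 no factor arrays, 22 Hox probes lay lower in both FGF4 arrays (38.6%, against 24.2% of all probes) and 5 lay higher (8.77%, against 23.1%). The 11 genes were the 8 that fell with FGF4 and Hoxc10, Hoxd4 and Hoxd8. With all 38 genes tested and no filter, 8 fell with FGF4 against no factor where 3.43% of 31336 features did. Hoxd4, detected on no array, entered this set (-0.58, limma adjusted p 0.00723), and Hoxd9 left it (adjusted p 0.0710). The raw Hoxd4 intensities were 99.6 and 103.7 with no factor, 83.4 and 89.5 on the arrays labelled LIF, and 78.1 to 85.4 with FGF4. The last 2 ranges thus overlapped before normalization, and the RefSeq spans of Hoxd3 and Hoxd4 overlap. Raw intensities with FGF4 and on the arrays labelled LIF also overlapped for Hoxb4, Hoxd8, the brighter Hoxc10 probe and the dimmer Hoxd9 probe. After normalization Hoxd8 reached 5.13 with FGF4, against a lowest level of 5.14 without it.

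The size of the differences depended on the background correction. With no correction, log2(intensity + 16), the 8 differences were -1.18 for Hoxb7, -0.97 for Hoxc9, -0.72 for Hoxc13, -0.65 for Hoxa7, -0.55 for Hoxc12, -0.52 for Hoxc6, -0.42 for Hoxd9 and -0.39 for Hoxb4. The last 2 then missed the threshold (adjusted p 0.0983 and 0.0624).

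Promoters were available for 22 of the 38 measured Hox genes and for 3 of the 8 that fell, which were Hoxa7, Hoxb4 and Hoxd9. They are shown because members of separate clusters fell together and Cdx factors and retinoic acid receptors are known inputs of the clusters. The windows are the 250 bases before the gene start, 5′ to 3′ on the gene's strand, from RefSeq, GRCm38.p6: chr6:52218574-52218823 on the minus strand for Hoxa7, chr11:96318017-96318266 on the plus strand for Hoxb4 and chr2:74697513-74697762 on the plus strand for Hoxd9. Capitals mark the Cdx core TTTATG in Hoxa7 and the retinoic acid receptor half-site AGGTCA, read on the other strand as TGACCT, in Hoxb4.
Hoxa7: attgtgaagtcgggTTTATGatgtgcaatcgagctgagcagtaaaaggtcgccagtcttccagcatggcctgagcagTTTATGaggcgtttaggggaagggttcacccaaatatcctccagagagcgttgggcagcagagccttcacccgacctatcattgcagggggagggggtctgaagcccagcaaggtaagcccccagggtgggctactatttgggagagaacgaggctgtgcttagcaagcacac
Hoxb4: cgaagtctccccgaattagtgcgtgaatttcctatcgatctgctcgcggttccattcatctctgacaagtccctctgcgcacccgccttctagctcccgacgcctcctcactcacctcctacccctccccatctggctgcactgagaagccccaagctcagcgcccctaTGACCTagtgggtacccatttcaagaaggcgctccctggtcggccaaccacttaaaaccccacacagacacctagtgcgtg
Hoxd9: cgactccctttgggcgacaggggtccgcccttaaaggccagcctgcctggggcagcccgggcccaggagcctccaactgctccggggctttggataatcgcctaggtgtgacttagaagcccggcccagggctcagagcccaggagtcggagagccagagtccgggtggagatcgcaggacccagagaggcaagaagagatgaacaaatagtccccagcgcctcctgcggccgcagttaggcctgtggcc

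Both strands of each window were searched for these 2 motifs and for 3 others. The HOX-PBX composite was spelled TGATNNAT. The STAT palindrome was spelled TTCNNNGAA. The ETS core was spelled CCGGAA. No overlap between motifs was removed. The Hoxa7 window holds 2 Cdx cores, which end 230 and 167 bases before the start. The Hoxb4 window holds 1 half-site, which ends 75 bases before the start, and the Hoxd9 window holds none of these letters. Among 24 Hox promoter windows, 5 hold the Cdx core, 6 the half-site, 4 the HOX-PBX composite, 1 the STAT palindrome and 1 the ETS core. Of all 32851 promoter windows of the same length, 10.8% hold the first, 14.0% the half-site, 7.7% the composite, 7.0% the palindrome and 12.0% the ETS core. The Hox windows had a median ratio of observed to expected CpG of 0.72, against 0.37 over all windows. These matches describe letters in a window and not bound sites.

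FGF4 was next compared with the arrays labelled LIF, again with control shRNAs. This comparison shares its FGF4 arrays with the one above. Of the 13 tested Hox genes, 7 fell, 0 rose and 6 did not pass, where 7.71% of all features fell and 7.97% rose (limma, adjusted over 14103 features). Of those that fell, Hoxa7, Hoxc6, Hoxc9, Hoxc12 and Hoxd9 passed the detection filter only through arrays without FGF4. The count therefore describes the tested genes and not the clusters as a whole. Hoxc13 was 3.74-fold lower (-1.90 ± 0.24 SE, limma adjusted p 0.00136) and Hoxb7 3.08-fold lower (-1.62 ± 0.18 SE, limma adjusted p 0.000733). The shRnd2 FGF4 array did not detect Hoxb7. Both genes lay at the edge of background with FGF4, so these folds are uncertain. Hoxa7 was at least 2.04-fold lower, Hoxc9 at least 1.96-fold, Hoxc6 at least 1.53-fold, Hoxd9 at least 1.32-fold and Hoxc12 at least 1.17-fold. Their limma adjusted p-values lay between 0.000521 for Hoxc9 and 0.0190 for Hoxd9. Hoxd9 lost the call without the shRnd1 FGF4 array (0.148) or the shRnd1 array labelled LIF (0.127). Hoxb4, not well above background in either group, differed by -0.31 (95% interval -0.76 to 0.13, adjusted p 0.338).

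The arrays labelled LIF were compared with the no factor arrays in the same fit. No Hox gene passed, 0 of 13, and over all features 1 passed (0.00709%). At an unadjusted p under 0.05 there were 2 of 13, where 7.34% of all features were, namely Hoxb4 (-0.53, p 0.0242 from limma) and Hoxb7 (-0.52, p 0.0191 from limma). Both lay lower on the 2 arrays labelled LIF than on the 2 no factor arrays. Hoxc13 differed by 0.45 in the other direction, with a 95% interval of -0.10 to 1.00, and the shRnd1 array labelled LIF was the highest of all 8 for Hoxc13, Hoxc4, Hoxc10, Hoxa7 and Hoxd9. The intervals of the other tested members reached from -0.88 to 0.85 at the widest.

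The Mp1 shRNAs were compared with control shRNAs in FGF4 to ask whether Hox levels differed when Mp1 was targeted. None of the 13 tested Hox genes passed, and 0 had an unadjusted p under 0.05, where 14.4% of all features did. That share was 8.22% over features with a gene name and 10.2% over features in the range of mean level of the Hox genes. After adjustment 14 of 14103 features passed (0.0993%, of which 0.0638% rose and 0.0355% fell, limma). The differences ran from -0.31 for Hoxb2 to 0.20 for Hoxa13, with a median of -0.02. For the 4 members with the clearest drop in FGF4, the 95% interval was -0.50 to 0.32 for Hoxb7, -0.49 to 0.34 for Hoxc9, -0.40 to 0.40 for Hoxa7 and -0.79 to 0.31 for Hoxc13. Hoxa7, Hoxb4, Hoxc6, Hoxc9, Hoxc12 and Hoxd9 were detected on none of these 4 arrays, so a further drop could not have been measured. Hoxc13 (-0.24, adjusted p 0.608) and Hoxb2 (-0.31, adjusted p 0.513) lay lower on both Mp1 arrays than on both control arrays. That is 15.4% of the 13 genes, where 18.6% of all features did so. The spread of the Mp1 arrays over all features, a residual SD of 0.438 log2 units, was above the 0.184 to 0.293 of the other groups, and over Hox genes it was 0.144.

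The Mp1 arrays were also set against the no factor arrays, a comparison added after the values were seen. It shares the no factor arrays with the comparison of control shRNAs. Of 13 Hox genes, 7 fell and 0 rose, where 6.09% of all features fell and 8.12% rose (limma). Hoxa7, Hoxb4, Hoxc6, Hoxc9 and Hoxc12 passed the detection filter only through arrays without FGF4, so this count too describes the tested genes only. Hoxb7 was 4.70-fold lower (-2.23 ± 0.18 SE, limma adjusted p 0.000228) and Hoxc13 3.25-fold lower (-1.70 ± 0.24 SE, limma adjusted p 0.00271). The shMP1G array did not detect Hoxc13, and Hoxb7 had a detection p of 0.04 on both Mp1 arrays. These folds are therefore uncertain. Hoxc9 was at least 2.38-fold lower, Hoxa7 at least 2.20-fold, Hoxc6 at least 1.49-fold, Hoxb4 at least 1.25-fold and Hoxc12 at least 1.23-fold. Hoxd9 differed by -0.77 and did not pass (adjusted p 0.0591). Without the shRnd1 no factor array 4 of the 7 calls were left.

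Genes that work with or on the Hox clusters were counted from lists, in the comparison of FGF4 with no factor. Their counts stand beside 7.84% of all features that rose and 7.79% that fell, and against the arrays labelled LIF beside 7.97% and 7.71%. Evx1, a homeobox gene that neighbours Hoxa13 at the end of the Hoxa cluster and marks the primitive streak, was the member that rose most. It was at 5.90 and 6.24 with no factor, 6.51 and 6.48 on the arrays labelled LIF, 9.21 and 9.66 with FGF4 and control shRNAs, 8.79 with shMp1Lib and 7.40 with shMP1G. All 4 arrays with FGF4 lay above all 4 without it, opposite to the Hox genes that fell. The level was 10.3-fold higher with FGF4 than with no factor (3.37 ± 0.40 SE, n = 2, limma adjusted p 0.000933) and 7.66-fold higher than on the arrays labelled LIF (2.94, adjusted p 0.00195). With the Mp1 shRNAs it was 2.53-fold lower than with control shRNAs, which did not pass (-1.34 ± 0.40 SE, adjusted p 0.237). Among the 11 tested genes that flank the clusters, Evx1 was the only one to pass (9.09%, where 15.6% of all features passed in either direction). It was also 1 of 2 tested Cdx, ParaHox and Evx genes. The other, Cdx1, did not pass (-0.23, limma adjusted p 0.683). Cdx2 was detected on 1 array and Cdx4 on 0, so neither was tested.

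Of 10 tested members of Polycomb complex PRC1, 1 fell and 1 rose with FGF4 against no factor, near the shares over all features (7.79% and 7.84%). Cbx8 is a chromodomain subunit that reads the repressive H3K27 methyl mark. It was at 8.00 and 7.31 with no factor and 7.92 and 7.86 on the arrays labelled LIF. With FGF4 it was at 5.18 and 5.27 with control shRNAs and at 5.37 and 5.17 with the Mp1 shRNAs. It was not well above background on the control FGF4 arrays, and was at least 4.56-fold lower there than with no factor (-2.43 ± 0.24 SE, limma adjusted p 0.00038). Against the arrays labelled LIF it was at least 5.35-fold lower (adjusted p 0.000301). Yaf2, a subunit of variant PRC1, was at least 1.15-fold higher (0.63 ± 0.18 SE, adjusted p 0.0495), and its call was lost in each fit that omitted 1 control array (adjusted p from 0.0756 to 0.285). Against the arrays labelled LIF, Phc2 of PRC1 rose (0.98, adjusted p 0.0213), as did Yaf2 (0.91, adjusted p 0.0113). Both calls were lost without either control FGF4 array or either array labelled LIF, with adjusted p up to 0.131 for Phc2 and 0.0940 for Yaf2.

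Of 7 tested members of PRC2, which writes the H3K27 mark, 0 passed against no factor, with 2 (28.6%) at an unadjusted p under 0.05, where 27.8% of all features were. Against the arrays labelled LIF, the histone-binding subunit Rbbp7 rose 3.40-fold (adjusted p 0.00917) and Phf19, which brings PRC2 to chromatin, fell 2.30-fold (adjusted p 0.0127). Both calls were lost without either control FGF4 array or without the shRnd1 array labelled LIF, with adjusted p up to 0.0703 and 0.0873, and 1 of 4 Rbbp7 probes did not pass (0.90, adjusted p 0.0514). Of 7 tested Trithorax members and H3K27 demethylases, 2 core subunits of the H3K4 methyltransferase complexes fell with FGF4 against no factor, where 7.79% of all features fell. Rbbp5 was 2.05-fold lower (-1.03 ± 0.25 SE, limma adjusted p 0.0239) and Ash2l 1.96-fold lower (-0.97 ± 0.23 SE, limma adjusted p 0.0236). Against the arrays labelled LIF, Ash2l (-0.86, adjusted p 0.0394) and the methyltransferase Kmt2b (-0.84, adjusted p 0.0366) fell. These calls were lost in 9 and 7 of 16 alternatives, with adjusted p up to 0.303 and 0.222, among them array medians in place of quantiles and the fits without either control FGF4 array. The calls of Rbbp5 and Ash2l against no factor did not survive leaving out single arrays, with adjusted p up to 0.159 and 0.192.

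Of 6 tested retinoic acid pathway genes, 2 rose with FGF4 against no factor and 0 fell, where 7.84% and 7.79% of all features did. Against the arrays labelled LIF 0 of the 6 passed, with Rarg at 0.45 (limma adjusted p 0.245) and Crabp2 at 0.84 (limma adjusted p 0.22). The receptor Rarg was at 6.07 and 6.63 with no factor and 7.17 and 7.35 with FGF4 (1.88-fold, limma adjusted p 0.0275). Crabp2, which hands retinoic acid to its receptors, was not well above background with no factor, at 5.24 and 5.20, and stood at 6.91 and 6.81 with FGF4, at least 2.59-fold higher (limma adjusted p 0.0266). Neither call was kept in every fit that left out 1 array, with adjusted p up to 0.207 and 0.151. Of 6 tested TALE cofactors, 1 fell, where 7.79% of all features did. It was Pknox2 (1.68-fold, adjusted p 0.0307), and a second Pknox2 probe did not (0.01, adjusted p 0.988). The Pknox2 call was lost in each of the 6 fits that omitted 1 control array (adjusted p from 0.0508 to 0.225). No member of these lists passed between the Mp1 and control shRNAs, and 2 of 18 listed non-coding transcripts of the clusters had a probe, neither of which was detected on 2 arrays.

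**Figure D5:**
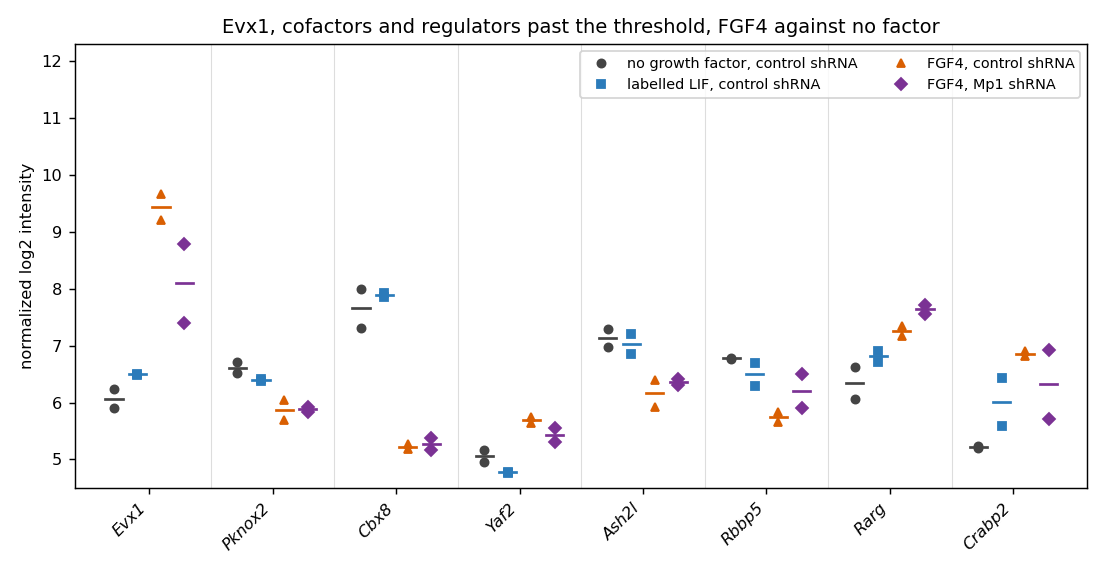
Normalized log2 intensity (vertical axis) of Evx1, a TALE cofactor, Polycomb, Trithorax and retinoic acid pathway genes that passed for FGF4 against no factor (horizontal axis), on each of the 8 arrays. Each point is 1 array and each bar the mean of a group. Evx1 lies between 7.40 and 9.66 with FGF4 and between 5.90 and 6.51 without it, while Cbx8 lies between 5.17 and 5.37 with FGF4 and between 7.31 and 8.00 without.

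Markers of other cell types were read on the same arrays, because fibroblasts used as feeder cells express Hox genes. Of 9 fibroblast markers with a probe, Thy1 and Twist1 were detected on all 8 arrays, while Col1a1, Col1a2, Col3a1, Postn, Prrx1, Lox and Fap were detected on none. Their summed raw intensity was 823 to 930 on the 4 arrays without FGF4 and 1013 to 1244 on the 4 arrays with FGF4. Most of these probes were at background, so the sum does not measure fibroblast content. Thy1 (1.41, limma adjusted p 0.0636) and Twist1 (0.40, limma adjusted p 0.43) did not pass for FGF4 against no factor. Of 8 listed primitive streak and early mesoderm markers, 6 had a probe, and none of these was detected on any array. T and Msgn1 had no probe under those symbols and could not be read. Evx1, which also marks the streak but was counted in another list, was detected on all 8 arrays and rose with FGF4. Of 6 endoderm markers, Dab2 rose with FGF4 (at least 3.22-fold against no factor, limma adjusted p 0.000847). The 3 other tested markers did not pass, with Sox17 at 0.73, Gata6 at -0.02 and Gata4 at -0.20 log2 units. The list's summed intensity was 641 to 821 with FGF4 and 454 to 543 without. Of 7 neural markers, Map2 rose (2.47-fold, limma adjusted p 0.0031), and the 2 other tested markers did not pass, with Tubb3 at -0.11 and Nes at -0.16 log2 units. Their summed intensity was 640 to 774 with FGF4 and 559 to 674 without. The sums of all lists are of raw intensities and include undetected probes, so they do not measure the share of such cells. The part of these cells in the Hox differences was not tested.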

How the data were processed

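Biotin-labelled RNA of 8 samples was hybridised to Illumina arrays. The deposited table gives, per the file headers, a linear intensity and a detection p-value for each probe and array. What the authors used to make it is not given in the sources used here. The intensity in 81.2% of table cells had lost its decimal point, which was restored from the digit count and the detection p-value, a rule tested on simulated data. The deposited series value table, also intensity, was used only to judge the probe IDs, which did not match between the tables. In the non-normalized table ribosomal protein probes had a median percentile of 99.5, against 57.1 in the value table. Its platform annotation named 32245 probes with 1 symbol, 17 with several and 13019 with none. No per-sample column was left out (0 columns).

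Intensities were processed with limma 3.58.1 (R 4.3.3, statmod 1.5.0): neqc with offset 16, then 4 group means over all 8 arrays, lmFit and eBayes, two-sided, Benjamini-Hochberg adjusted. Features were probes with detection p under 0.05 on at least 2 arrays, and the brightest probe of each symbol, 14103 in all. Where no array of a group detected a probe, the group is called not well above background and a fold is a lower bound. All tested Hox genes are named, and from each list at most the 3 members with the lowest adjusted p that passed. The Cdx genes are named in addition. Members and lists were chosen with earlier results of these data known. Alternatives changed background correction, normalization, filter, probe choice, weights, arrays fitted and replicate block.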

Additional observations from a re-analysis of the deposited data

How the results depend on the processing

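No called Hox difference changed sign under the alternatives run. Hoxa7, Hoxb7, Hoxc9 and Hoxc13 kept their calls for FGF4 against no factor under all 16 alternatives. With detection p under 0.01 on 2 arrays, 4 Hox genes were called for FGF4 against no factor, 4 against the arrays labelled LIF and 4 for the Mp1 arrays against no factor, since fewer genes were tested. Leaving out 1 array gave 4 to 8, 6 to 8 and 4 to 7, the lowest without the shRnd1 no factor array against no factor in both cases. The shRNA numbers did not pair the samples (correlations of deviations -0.0832, -0.0696 and 0.043). A replicate block on them gave 8, 7 and 0 Hox genes for FGF4 against no factor, FGF4 against labelled LIF and labelled LIF against no factor, and 2975, 3076 and 1 features. Features called for FGF4 against no factor were 2205, with 4112 under array weights, 3858 with only the 4 arrays compared, and 1008 to 3232 with 1 array left out. FGF4 against labelled LIF gave 2212, and 981 to 3325 with 1 array left out. Labelled LIF against no factor gave 1, with 2 under array medians, 3 without a filter, 33 under array weights and 1 to 19 with 1 array left out. Mp1 against control shRNAs gave 14, with 4 under array medians, 2 under array weights, 0 with only 4 arrays, and 0 to 2841 with 1 array left out, the highest without shMP1G. The Mp1 arrays against no factor gave 2004, with 1323 under array weights, 989 with only 4 arrays and 737 to 4565 with 1 array left out, the highest without shMP1G. At detection p under 0.01, Hox probes detected numbered 1 and 0 (Mp1), 0 and 0 (control, FGF4), 6 and 5 (labelled LIF) and 6 and 5 (no factor). The cause of these shifts was not tested. Signals close to background limit the Hox values.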
